A study of Mus musculus with 5 samples.

Results

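The lysosome was followed here through 37 listed genes that encode its proteases, its glycosidases and lipid hydrolases, its membrane proteins and the pump that acidifies it. A member was a row of the deposited table whose platform annotation gave exactly 1 gene symbol, equal to a listed gene, and 35 of the 37 had such a row, out of 17756 genes in all. Cd63, a tetraspanin of lysosomes and late endosomes, and Atp6v0c, the proteolipid of the proton pump, lacked such a row and are named only. The arrays held cells of C57Bl/6 mouse embryos at E11.5, taken from the aorta-gonad-mesonephros (AGM) region, where the first definitive blood stem cells arise. Cells positive for both VE-cadherin (VE), an endothelial junction protein, and CD45, a protein of all white blood cells, were sorted and cultured in serum. Cells of the IFNa group (n = 3, replicates 1, 2 and 3) were given 0.5 ng/ml of interferon-alpha, and cells of the vehicle group (n = 2, replicates 2 and 3) only vehicle, in both cases over 4 hours. No genotype was altered, and the labels do not say how many embryos a sample pooled or whether replicates came from separate litters, so p-values measure only the spread between these samples.

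Lysosomes degrade protein, lipid, sugar chains and nucleic acid at acidic pH. Cathepsins and other hydrolases are made as precursors, sorted to the lysosome largely by mannose 6-phosphate receptors, and kept active by the V-ATPase, a rotary pump whose cytosolic V1 sector burns ATP and whose membrane V0 sector passes protons. TFEB and its relatives TFE3 and MITF switch on many lysosomal genes together by binding a short palindrome, the CLEAR element, near their start sites. TFEC is a further relative. Macrophages are rich in lysosomes, and cathepsin S and legumain there also cut antigens for presentation.

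The labelled cell type was checked against markers. The sorted cells gave a signal of 6.23 to 9.20 for Cdh5 (VE-cadherin) and 5.35 to 8.95 for Ptprc (CD45) on the log2 scale over the 5 arrays. All 12 macrophage markers listed were measured, with a median percentile of 98.01 among all genes and a list mean of 11.58 to 11.94 on the IFNa arrays and 11.65 to 11.95 on the vehicle arrays. The list means of 8 endothelial markers ran from 5.15 to 6.45 with IFNa and from 5.53 to 6.78 with vehicle, and those of 8 stem and progenitor markers from 6.68 to 7.07 and from 6.37 to 7.59. The list means of 7 granulocyte markers ran from 7.27 to 8.77 with IFNa and from 7.21 to 7.38 with vehicle. These means cover unlike genes: Mpo, S100a8 and S100a9 stood at the 97.2, 97.0 and 98.7 percentiles. Prtn3 and Ltf stood at 55.8 and 59.9, and Elane and Ctsg at 22.0 and 20.9. Over the 5 arrays Mpo ranged from 9.19 to 12.81 and S100a8 from 7.87 to 14.59. Ptprc was lower on every IFNa array, by -2.02 ± 0.75 (SE, unadjusted p = 0.033, adjusted p = 0.441, limma), while Cdh5 overlapped. The list means of 7 erythroid markers ran from 5.25 to 6.16 with IFNa and from 5.50 to 6.15 with vehicle. Of all listed markers, which do not include Ptprc, 5 had an unadjusted p under 0.05 in limma and 0 passed after adjustment. Cd34, a progenitor and endothelial antigen, was lower on every IFNa array, by -2.61 ± 0.63 (SE, adjusted p = 0.268, limma). Also among these 5, Tfrc, the transferrin receptor, was higher on every IFNa array, by 2.89 ± 0.38 (SE, adjusted p = 0.0741, limma). So were Tek, the angiopoietin receptor, by 2.15 ± 0.72, and Prtn3, a granule protease, by 1.15, while S100a8 differed by 3.07 with overlap. Their lists did not follow them as a whole: 6 of 8 endothelial, 5 of 7 erythroid and 3 of 7 granulocyte markers had differences below 0. Outside these 5, Mertk, Gfi1 and Ms4a2 were also higher on every IFNa array, and Ctsg, Ltf and Oscar lower. The part of macrophages, of granulocytes or of these marker differences in the lysosomal signals was not tested, and in these bulk samples more cells of a type and more RNA per cell cannot be told apart. Array medians lay between 4.98 and 5.15, and no arrays were identical.

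Some members carried the letters that TFEB and its relatives bind. The element is known from lysosomal genes, so a higher share than over all genes could be foreseen and is no independent finding. RefSeq promoter windows (GRCm38.p6, 250 bases before to 50 bases after a start site) were matched for 30 of the 37 listed genes, all but Ctsb, Ctsh, Npc1, Asah1, Atp6v1b2, Atp6v1c1 and Atp6v1h. The octamer TCACGTGA, the inner part of the CLEAR element and its own reverse complement, was found in 6 of the 30, against 1.12% of the 27025 genes in the promoter table and 1.63% of those measured on the arrays. These 6 were Ctsa, Ctsd, Gla, Mcoln1, Atp6v0d1 and Atp6v1a. Its core, the E-box CACGTG, which every octamer contains, was found in 13 of the 30 (43.3%), against 8.09% of all genes in the table. Among 73 other lysosomal genes with a window, 7 (9.59%) held the octamer and 14 (19.2%) held the E-box. The letters GAAANNGAA, most of the core of the interferon-stimulated response element, searched on both strands, were found in 4 of the 30 members (Ctss, Lamp1, Atp6v0c and Atp6v1d, 13.3%), against 9.76% of all genes. A match is a description of letters and was not tested as a binding site.

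The 250 bases before the start site are given for 5 members that hold the whole octamer there, for Lamp1, which had the most E-boxes of any member, and for Ctsk, the dimmest member, with neither. They read 5' to 3' in the direction of the gene, with each octamer or E-box in capitals.
Ctsd, chr7:142387828-142388077, minus strand: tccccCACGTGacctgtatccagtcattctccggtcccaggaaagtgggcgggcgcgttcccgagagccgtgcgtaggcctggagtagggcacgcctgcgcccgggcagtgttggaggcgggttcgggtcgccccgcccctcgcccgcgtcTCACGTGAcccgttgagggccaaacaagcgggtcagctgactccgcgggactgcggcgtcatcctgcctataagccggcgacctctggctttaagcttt
Ctsa, chr2:164833523-164833772, plus strand: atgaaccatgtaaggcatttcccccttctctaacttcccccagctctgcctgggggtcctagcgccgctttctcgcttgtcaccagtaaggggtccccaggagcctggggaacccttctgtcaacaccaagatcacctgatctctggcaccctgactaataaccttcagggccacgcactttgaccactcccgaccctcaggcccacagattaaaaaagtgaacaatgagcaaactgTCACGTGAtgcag
Gla, chrX:134601006-134601255, minus strand: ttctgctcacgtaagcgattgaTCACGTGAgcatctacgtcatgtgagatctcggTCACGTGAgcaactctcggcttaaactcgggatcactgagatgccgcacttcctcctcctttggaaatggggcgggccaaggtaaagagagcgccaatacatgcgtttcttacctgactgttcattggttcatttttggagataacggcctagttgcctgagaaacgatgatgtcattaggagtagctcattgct
Mcoln1, chr8:3500269-3500518, plus strand: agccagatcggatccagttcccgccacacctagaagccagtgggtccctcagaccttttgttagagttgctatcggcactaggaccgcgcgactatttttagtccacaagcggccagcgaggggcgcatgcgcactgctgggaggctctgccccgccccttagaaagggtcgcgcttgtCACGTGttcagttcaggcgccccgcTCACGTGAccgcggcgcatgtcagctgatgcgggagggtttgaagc
Atp6v1a, chr16:44139260-44139509, minus strand: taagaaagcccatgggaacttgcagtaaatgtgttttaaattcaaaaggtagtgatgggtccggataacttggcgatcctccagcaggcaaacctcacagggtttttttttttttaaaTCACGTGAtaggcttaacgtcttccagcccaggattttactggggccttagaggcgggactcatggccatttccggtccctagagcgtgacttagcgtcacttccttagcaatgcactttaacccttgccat
Lamp1, chr8:13158911-13159160, plus strand: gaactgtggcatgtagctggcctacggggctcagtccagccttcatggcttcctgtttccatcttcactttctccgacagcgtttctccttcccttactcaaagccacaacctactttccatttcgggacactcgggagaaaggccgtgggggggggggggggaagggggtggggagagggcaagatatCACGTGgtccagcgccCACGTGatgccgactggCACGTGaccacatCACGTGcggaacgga
Ctsk, chr3:95498960-95499209, plus strand: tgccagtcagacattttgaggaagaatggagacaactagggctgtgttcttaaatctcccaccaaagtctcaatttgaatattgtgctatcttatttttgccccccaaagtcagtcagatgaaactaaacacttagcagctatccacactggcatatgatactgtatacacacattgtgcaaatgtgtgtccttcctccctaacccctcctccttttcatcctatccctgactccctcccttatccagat
Ctsd encodes cathepsin D, Ctsa the protective protein of the sialidase complex, Gla alpha-galactosidase A, Mcoln1 the calcium channel TRPML1, Atp6v1a the catalytic subunit of the pump, Lamp1 the main membrane glycoprotein and Ctsk cathepsin K. Lamp1 had 4 E-boxes, at 61, 45, 28 and 15 bases before the start site, and no octamer. In Gla the octamer occurred at 228 and at 195 bases before the start. The second octamer of Ctsa began 4 bases after the start and the octamer of Atp6v0d1 4 bases before it, so neither lies whole in a stretch of this kind. Members with the octamer (6) had a median percentile of 95.3, and the 22 measured members whose window lacked it had one of 96.2.

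Lysosomal genes stood near the top of the table. Mean signal over the 5 arrays was ranked among all 17756 genes, and the percentile is the share of genes with a lower signal. This ranks probe set signals, which depend on the probes as well as on the transcript, and is not a ranking of transcript amounts. The median percentile of the 35 members was 95.7, and on each array alone it lay between 94.4 and 95.6. In the top 10% of genes lay 25 of the 35 (71.4%), in the top 5% 19 and in the top 1% 7. These 7 were Grn, Ctsz, Hexa, Ctss, Atp6v1d, Asah1 and Lamp1. The exception at the low end was Ctsk at the 12.4 percentile, the only member below the median of all genes. Of 79 other measured lysosomal genes, listed by function, 25 (31.6%) lay in the top 10%, with a median percentile of 81.4.

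**Figure D1:**
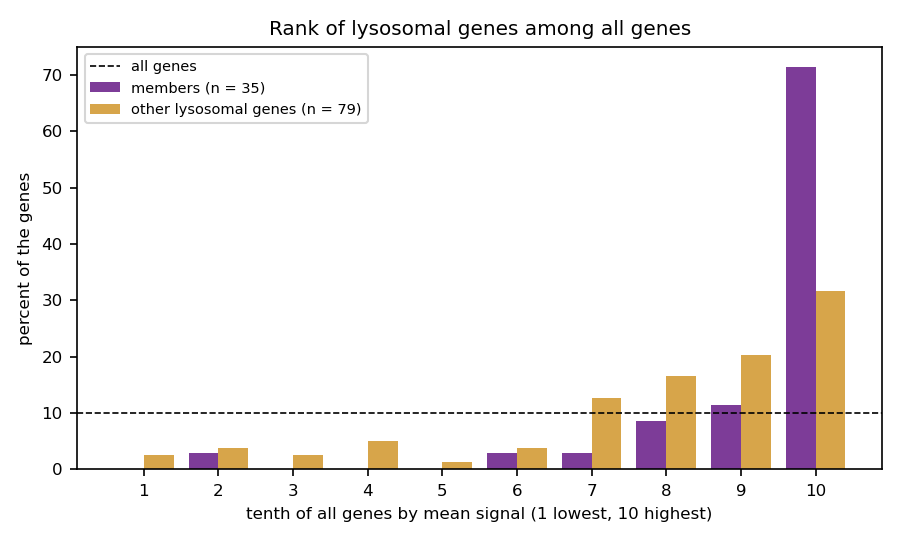
Percent of genes (vertical axis) in each of 10 equal bins of all 17756 genes by mean log2 signal (horizontal axis, 10 is the highest), for the 35 members and 79 other lysosomal genes; the dashed line is the share of all genes. Of the members, 71.4% fall in the highest group, against 31.6% of the other lysosomal genes.

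No member passed the test between IFNa and vehicle. In a limma fit over all genes with Benjamini-Hochberg adjustment, 0 of 35 members passed an adjusted p of 0.05 in either direction, against 0.0169% of all genes higher and 0.118% lower. An unadjusted p under 0.05 was reached by 2 members, Atp6v1h and Gaa, both higher with IFNa, against 10.0% of all genes in either direction and 13.3% of the top 10% by signal. With IFNa replicate 2 left out, Ctsh and Mcoln1 reached it instead, as did 1540 of all 17756 genes. With IFNa replicate 3 left out, Atp6v1a and Atp6v1e1 did, as did 1615 of all genes. Atp6v1h and Gaa missed it in both of these fits. Psap, lower with IFNa, reached it with quantile normalization and with IFNa replicate 1 left out. The groups did not overlap for 4 of the 35 members, against 25.6% of all genes and 30.5% of the top 10% by signal. All 4 were higher with IFNa, as were 2043 of 17756 genes, and 0 were lower, as were 2500 of 17756. Of the 1776 genes in the top 10%, 397 were higher and 145 lower without overlap, and of the 25 members there 1 was higher and 0 were lower. The median difference of the members was 0.11 on the log2 scale (IFNa minus vehicle), against -0.04 over all genes and 0.15 over genes in the top 10% by signal. With quantile normalization the median of the members was -0.07 and that of the top 10% -0.09. Differences above 0 were found for 23 of the 35 members (65.7%), against 46.0% of all genes and 62.5% of the top 10%. With quantile normalization they were found for 16 members, against 51.6% of all genes and 43.9% of the top 10%. With arrays centred on their medians they were found for 29, against 54.9% and 69.5%. The difference was under 0.5 either way for 23 members, against 62.6% of all genes and 58.5% of the top 10%. For 12 members the 95% interval of the difference in signal lay within -1 and 1, against 26.2% of all genes and 19.9% of the top 10%. These were Ctsl, Ctss, Ctsz, Ctsa, Ctsd, Hexa, Lipa, Grn, Lamp1, Cd68 and Atp6v1d, together with Ctsk, whose signal lay at the dim end of the scale, where the narrow interval gives no limit on a change of the transcript. For the other 23 members the interval reached past a 2-fold change in at least 1 direction, up to 5.88 for Atp6v1h.

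**Figure D2:**
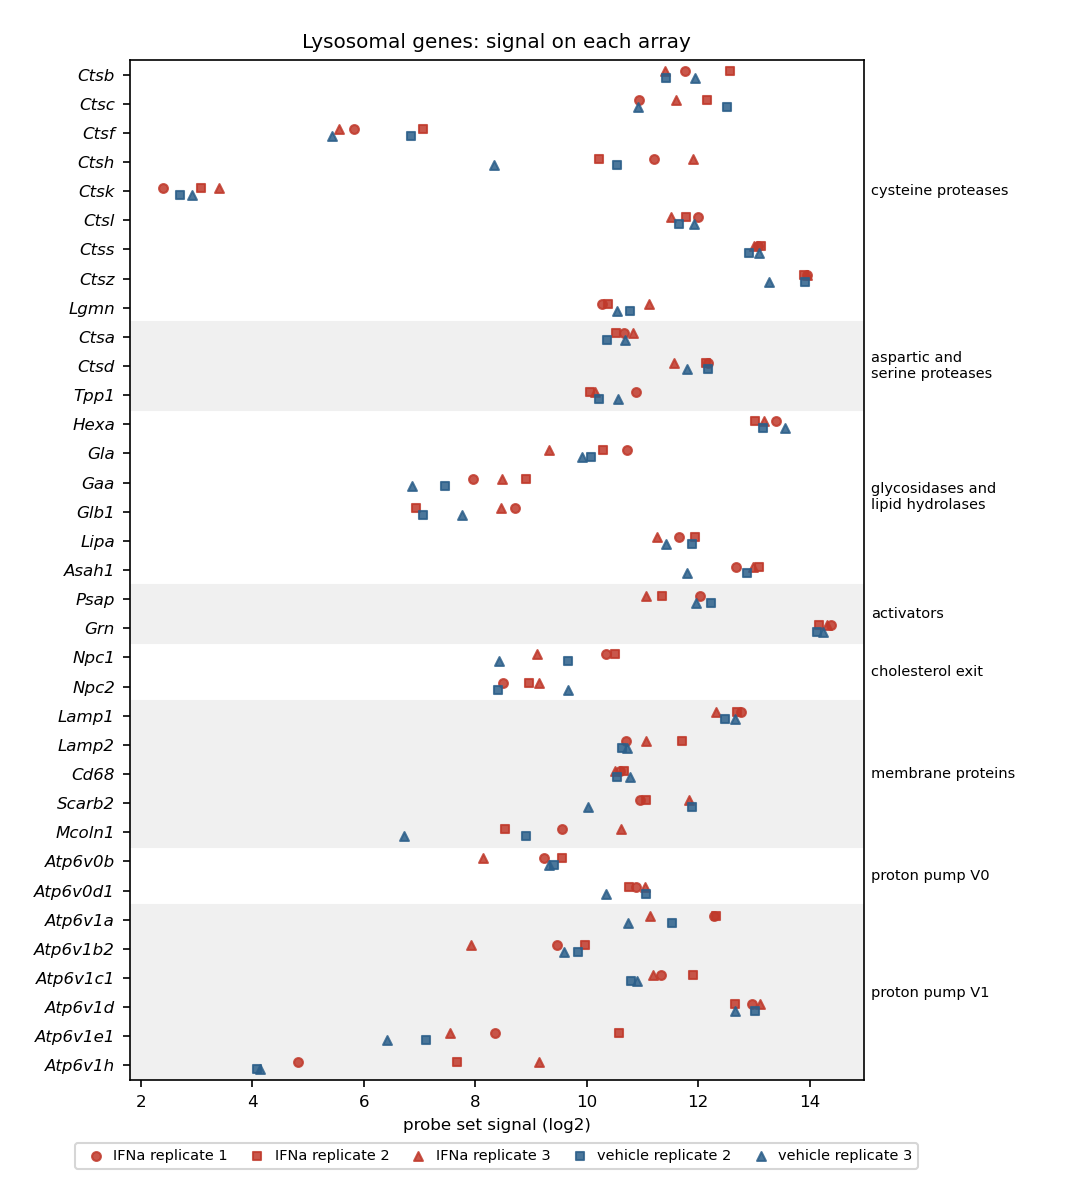
Log2 probe set signal (horizontal axis) of each of the 35 members (vertical axis, grouped by role) on the 3 IFNa arrays (red) and 2 vehicle arrays (blue); marker shapes give the replicate number. Most members lie above 10 with the groups intermixed, Ctsk lies lowest, between 2.40 and 3.40, and Atp6v1h spreads from 4.09 to 9.15.

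Cysteine proteases, the largest group of cathepsins, held some of the brightest members. Ctsz, cathepsin Z, a carboxypeptidase, read 13.94, 13.89 and 13.95 on the IFNa arrays and 13.91 and 13.26 on the vehicle arrays, at the 99.8 percentile. Vehicle replicate 3 was the low one, and the groups overlapped. Its difference of 0.34 ± 0.21 (SE) became 0.020 with vehicle replicate 3 left out and 0.67 with vehicle replicate 2 left out. Ctss, cathepsin S, which trims the invariant chain of MHC class II, read 13.07, 13.12 and 13.00 with IFNa and 12.91 and 13.10 with vehicle. It had the smallest spread of all members, a pooled SD within groups of 0.0922, and its difference of 0.06 had an interval of -0.35 to 0.48. Ctss is also one of the 4 members with GAAANNGAA in its window. Ctsk, cathepsin K, the collagen-cutting protease of osteoclasts, read 2.40, 3.08 and 3.40 with IFNa and 2.71 and 2.92 with vehicle, below the 20th percentile of all values in the table (3.22) on all arrays but IFNa replicate 3. Of osteoclast markers, Calcr stood at the 4.46 percentile, Oscar at 20.6 and Acp5 at 88.5. Ctsk and Ctss lie on chromosome 3 with start sites 27.6 kb apart (GRCm38.p6) and 1 annotated gene, Gm40096, between them, yet stood at the 12.4 and 99.5 percentiles.

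Ctsh, cathepsin H, an aminopeptidase, differed most in this group. It read 11.21, 10.22 and 11.91 with IFNa and 10.54 and 8.34 with vehicle. The low array was vehicle replicate 3, and IFNa replicate 2 lay below vehicle replicate 2. The difference of 1.68 ± 0.77 (SE, adjusted p = 0.543, limma) became 0.58 with vehicle replicate 3 left out and 2.77 with vehicle replicate 2 left out. Of the others, Ctsb (cathepsin B) and Ctsl (cathepsin L), the broad endopeptidases, Ctsc (dipeptidyl peptidase 1, which activates granule proteases) and Lgmn (legumain, which cuts after asparagine) stood between rank 355 (Ctsb) and rank 889 (Lgmn) from the top, and Ctsf (cathepsin F) at the 60.9 percentile. Their differences ran from -0.15 for Ctsc to 0.23 for Ctsb. Ctsc ranged from 10.92 to 12.52 and was highest and lowest on the vehicle arrays, replicates 2 and 3. Ctsl lay between 11.51 and 11.99. Counted together, 0 of the 9 cysteine proteases passed (limma), 0 had an unadjusted p under 0.05, and their median difference was 0.06.

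The aspartic and serine proteases had differences between -0.03 and 0.15. Ctsd, the main aspartic protease, read 12.18, 12.13 and 11.57 with IFNa and 12.17 and 11.80 with vehicle, with a difference of -0.02 and an interval of -0.74 to 0.69. Tpp1, tripeptidyl peptidase 1, which is lost in a form of Batten disease, read 10.89, 10.06 and 10.14 against 10.22 and 10.56, with a difference of -0.03. In both genes the vehicle values lay inside the range of the IFNa values. Ctsa stood at rank 890 from the top, with a range of 10.37 to 10.83 and a difference of 0.15. No member of this group had an unadjusted p under 0.05, and 0 of 3 passed (limma).

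Among glycosidases and lipid hydrolases, Gaa was the member with separate groups. Gaa, acid alpha-glucosidase, which degrades glycogen and is lost in Pompe disease, stood at the 78.2 percentile. It read 7.96, 8.91 and 8.49 with IFNa and 7.46 and 6.87 with vehicle. Every IFNa array was higher, and the difference was 1.29 ± 0.54 (SE, interval 0.0077 to 2.58), a 2.45-fold ratio. Its adjusted p was 0.496 in limma, and the difference ranged from 1.00 to 1.59 with each array left out in turn. Hexa, the alpha chain of beta-hexosaminidase, lost in Tay-Sachs disease, was the brightest of the group, at 13.40, 13.01 and 13.18 against 13.16 and 13.56. The highest array was vehicle replicate 3, the groups overlapped, and the difference of -0.16 had an interval of -0.66 to 0.33. Glb1, beta-galactosidase, read 8.71, 6.93 and 8.46 against 7.07 and 7.77, with IFNa replicate 2 the lowest array. Asah1, acid ceramidase, stood at the 99.2 percentile and differed by 0.58, or by 0.036 with vehicle replicate 3 left out. Lipa, the acid lipase that frees cholesterol from its esters, and Gla stood at 97.6 and 92.6, with differences of -0.03 and 0.11.

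Of the activators, Grn was the brightest of all members. Grn encodes progranulin, which is cut into granulins in the lysosome. It read 14.38, 14.16 and 14.31 with IFNa and 14.13 and 14.23 with vehicle, rank 11 of the 17756 genes. Its groups overlapped, the pooled SD was 0.0983 and the difference of 0.10 had an interval of -0.19 to 0.40. Psap, the precursor of the saposins that present lipids to hydrolases, had the most negative difference of the members. It read 12.03, 11.36 and 11.07 against 12.23 and 11.96. The vehicle arrays were high and IFNa replicate 1 lay between them, with a difference of -0.61 ± 0.36 (SE, adjusted p = 0.662, limma). Of the pair that exports cholesterol, Npc2, the soluble carrier, read 8.50, 8.97 and 9.15 against 8.42 and 9.66. Its difference of -0.16 ± 0.56 (SE) ran from -0.78 to 0.46 with each array left out in turn, so no direction is shown for Npc2. Npc1, the membrane transporter that takes over from Npc2, read 10.35, 10.51 and 9.10 against 9.66 and 8.43, with a difference of 0.94 ± 0.63 (SE) and vehicle replicate 3 the low array.

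The membrane proteins held both narrow and wide spreads. Lamp1 read 12.77, 12.69 and 12.32 with IFNa and 12.49 and 12.67 with vehicle, a difference of 0.02 with an interval of -0.53 to 0.57. Cd68, macrosialin, a marker of macrophages, read 10.60, 10.67 and 10.50 against 10.54 and 10.77, with a pooled SD of 0.118. In both genes all arrays lay within 0.5 of each other. Mcoln1 read 9.56, 8.54 and 10.61 against 8.92 and 6.73. Vehicle replicate 3 was again low, the groups overlapped, and the difference of 1.74 ± 0.87 (SE, adjusted p = 0.582, limma) was 0.65 without that array. Lamp2, whose splice form A takes part in chaperone-mediated autophagy, and Scarb2 (LIMP-2), the sorting receptor of glucocerebrosidase, stood at the 96.0 and 96.5 percentiles, with differences of 0.49 and 0.32. Scarb2 was highest and lowest on the vehicle arrays, at 11.88 and 10.03.

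The proton pump gave the largest differences, in the V1 sector. Atp6v1h, the regulatory H subunit, stood at the 58.9 percentile of mean signal, and at 29.8 on its lowest array. It read 4.81, 7.68 and 9.15 with IFNa and 4.09 and 4.15 with vehicle. The vehicle arrays were close and the IFNa arrays lay far apart, with replicate 1 near the vehicle values. The difference was 3.10 ± 1.17 (SE, interval 0.31 to 5.88), an 8.55-fold ratio, with an unadjusted p of 0.034 in limma and an adjusted p of 0.444. It was 2.13 without IFNa replicate 3 and 4.30 without IFNa replicate 1. Atp6v1e1, an E subunit of the peripheral stalk, stood at the 78.7 percentile. It read 8.36, 10.57 and 7.55 against 7.12 and 6.42, a difference of 2.06 ± 0.92 (SE, adjusted p = 0.53, limma). All IFNa arrays were higher, and without IFNa replicate 2 the difference was 1.18. Atp6v1c1, the C subunit that links stalk and membrane sector, read 11.33, 11.90 and 11.20 against 10.79 and 10.90. Here too all IFNa arrays were higher, with a difference of 0.63 ± 0.34 (SE, adjusted p = 0.618, limma).

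The differences of the pump subunits varied in sign and in spread, and several were smaller than their SE. Below 0 these were Atp6v1b2 (-0.60 ± 0.67) and Atp6v0b (-0.39 ± 0.56). With each array left out in turn they ran from -1.02 to -0.0042 and from -0.68 to 0.027. Above 0 these were Atp6v1d (0.07 ± 0.22) and Atp6v0d1 (0.20 ± 0.37), which were -0.10 and -0.15 with vehicle replicate 3 left out. No direction is shown for any of them. Atp6v1d, the D subunit of the central shaft and the brightest of the 8 measured members of the pump, read 12.97, 12.67 and 13.10 against 13.02 and 12.66. Its groups overlapped, and the difference of 0.07 had an interval of -0.46 to 0.61. Atp6v1a differed by 0.78 and Atp6v1b2, the B subunit of its ring, by -0.60, with IFNa replicate 3 the lowest array of the latter at 7.93. In the V0 sector, Atp6v0d1, which couples shaft and membrane ring, read 10.89, 10.77 and 11.05 against 11.06 and 10.34, and Atp6v0b, a proteolipid of that ring, read 9.24, 9.55 and 8.14 against 9.41 and 9.33. Their differences were 0.20 and -0.39. Of the 8 measured pump subunits 0 passed (limma), 1 had an unadjusted p under 0.05, and 6 were above 0 and 2 below, with a median difference of 0.42 against 0.10 for the 27 other members. The difference between those medians was not tested.

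**Figure D3:**
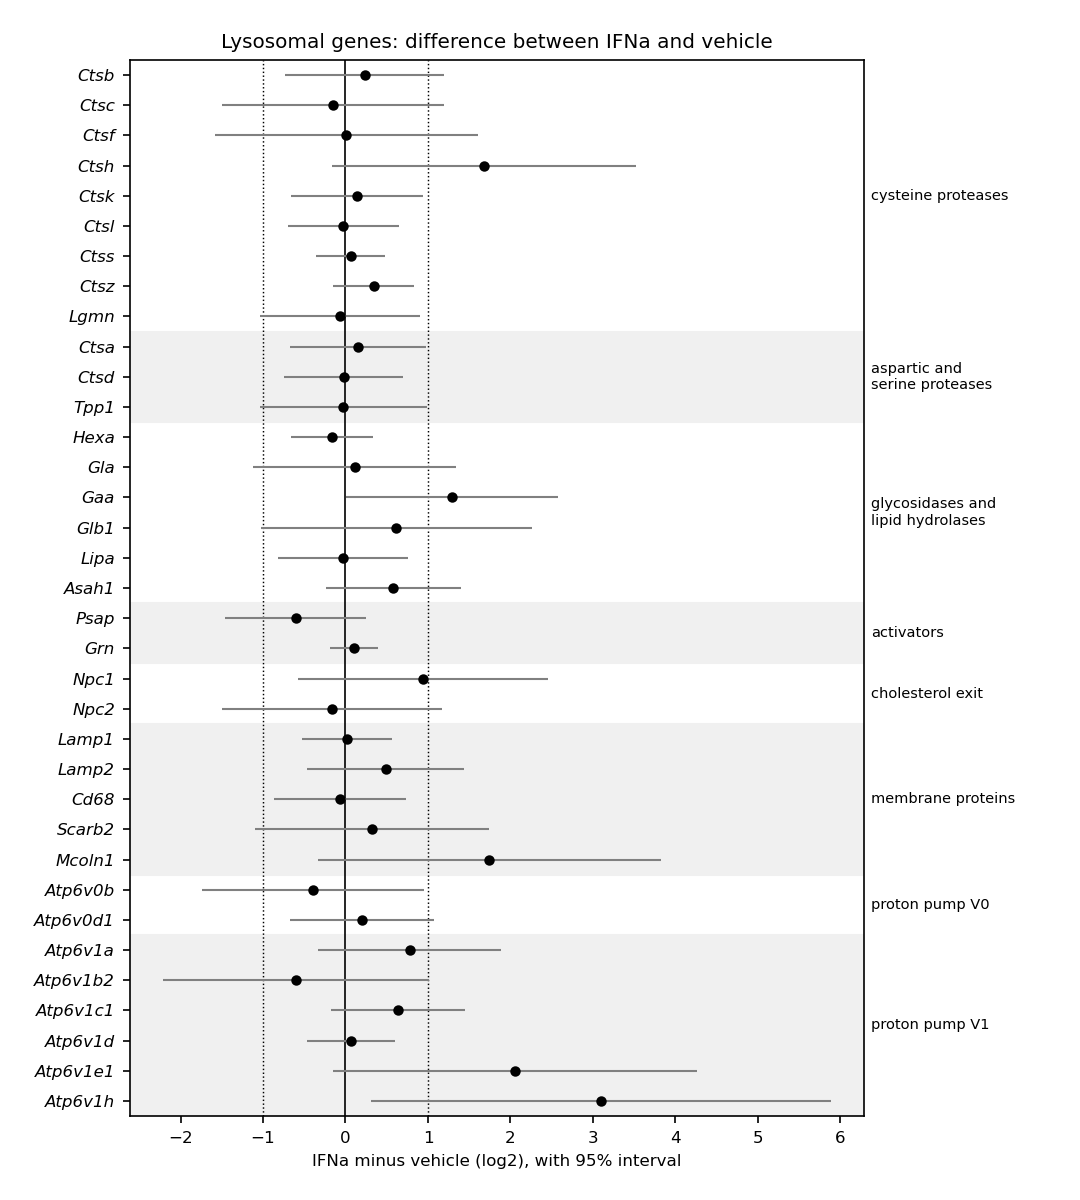
Difference between IFNa and vehicle (horizontal axis, log2, IFNa minus vehicle) for each of the 35 members (vertical axis), with 95% intervals from limma as bars; dotted lines mark a 2-fold change. Intervals of Atp6v1h (0.31 to 5.88) and Gaa (0.0077 to 2.58) exclude 0 before adjustment, and no member passes after it.

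Spread between arrays divided the members. For each gene the SD was pooled within the groups. Over the 35 members its median was 0.43 on the log2 scale, against 0.42 over all genes. Among the 25 members in the top 10% by signal the median was 0.35, against 0.45 for all 1776 genes there, and 17 of the 25 lay under that value. Among the 10 members below it the median was 0.86, and 7 of the 10 lay above the median of the genes at their level. Beside Ctss, Grn and Cd68, the pooled SDs were lowest for Ctsa (0.18) and Lamp1 (0.21). The largest were those of Atp6v1h (1.80), Atp6v1e1 (1.31), Mcoln1 (1.23) and Ctsh (1.13). Signals from all 5 arrays lay within 1 on the log2 scale for 14 members and spanned over 2 for 7.

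Vehicle replicate 3 was the lowest array for 13 of the 35 members (37.1%), a share close to the 36.5% of all genes in the top 10% by signal and above the 17.3% of all genes. IFNa replicate 2 was the highest for 13 members (37.1%), against 24.5% of the top 10%. The 13 with vehicle replicate 3 lowest were Ctsc, Ctsf, Ctsh, Ctsz, Gaa, Asah1, Npc1, Scarb2, Mcoln1, Atp6v0d1, Atp6v1a, Atp6v1d and Atp6v1e1. Without that array the difference went from 1.29 to 1.00 for Gaa, from 0.78 to 0.39 for Atp6v1a and from 2.06 to 1.71 for Atp6v1e1. The part of vehicle replicate 3 in the differences of these members was not tested. The probe sets of Ctsh, Gaa and Grn (type x) can match sequences of other genes, and those of Ctsz, Mcoln1 and Atp6v0b (type s) can match transcripts of several genes, so their signals are uncertain.

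**Figure D4:**
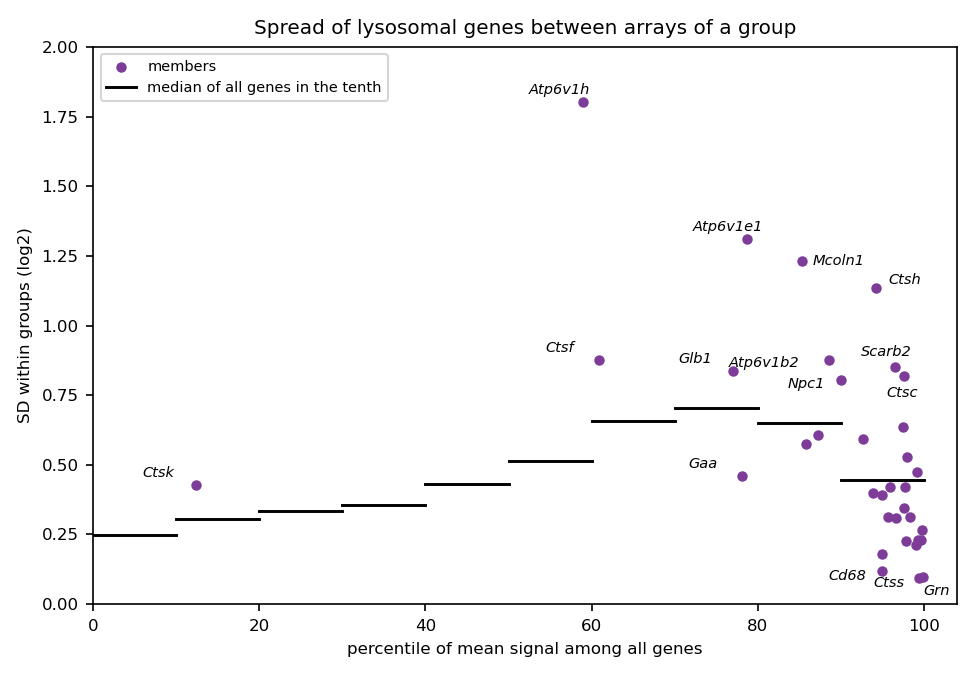
SD within groups (vertical axis, log2, pooled over the 3 IFNa and 2 vehicle arrays) against the percentile of mean signal among all genes (horizontal axis) for the 35 members; black bars give the median SD of all genes in each bin of signal. Members at the right end lie mostly under the bar of 0.45, with Ctss, Grn and Cd68 lowest, and Atp6v1h at 1.80 lies highest.

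Other lysosomal genes, listed by function, did not pass either. Of 79 measured genes of 91 listed, 0 were called by limma, whether higher or lower, while 5 reached an unadjusted p under 0.05, 3 of them higher and 2 lower with IFNa (all genes 4.52% and 5.51%). The median difference was 0.06. Sorting and biogenesis genes (9 measured, median -0.07) held both lower ones. Vps18, a subunit of the HOPS and CORVET complexes that tether late endosomes, read 5.24, 6.39 and 5.99 with IFNa and 8.30 and 8.17 with vehicle, with no overlap. Its difference of -2.36 ± 0.53 (SE, adjusted p = 0.237, limma) ranged from -2.62 to -2.04 with each array left out. Gnptg, a subunit of the enzyme that makes the mannose 6-phosphate tag, differed by -1.72 ± 0.53. Gnptab, which encodes the catalytic part of the same enzyme, differed by 1.37 ± 0.57, in the opposite direction. Rab7, the late endosome GTPase and the brightest of its list, differed by -0.33. Ostm1, the partner of the chloride transporter ClC-7, read 11.17, 12.13 and 10.01 against 9.53 and 7.77, a difference of 2.45 ± 0.78 (SE, adjusted p = 0.375, limma). Ppt1, palmitoyl-protein thioesterase, differed by 2.35 ± 0.87, with every IFNa array higher.

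The other lists are given by their medians, the gene with the smallest p and the brightest gene. Glycosidases (8 measured) had a median of -0.25, with Man2b1, lysosomal alpha-mannosidase, at 1.24 ± 0.70 and Aga, the brightest, at 0.61 ± 0.88. Sulfatases with Gnptab (6) had a median of 0.21, and their brightest, Arsb, was at 0.42. The lipid and phosphatase list (7) had a median of 0.37, with Acp2, a lysosomal acid phosphatase, at 0.90 ± 0.39. Other cathepsins (4) had a median of 0.10. Ctsg, the granule protease cathepsin G, was dim, at the 20.9 percentile and -0.39 ± 0.24, and Ctso was at 0.29. Among the cathepsin inhibitors (4, median 0.26), Cstb, cystatin B, stood at the 99.7 percentile and differed by 0.06 ± 0.15, and Cst7, cystatin F, by 0.53 ± 1.00. Other pump subunits (14) had a median of -0.02. Their brightest, the accessory protein Atp6ap2, differed by 0.10 ± 0.13 and its partner Atp6ap1 by 0.79 ± 0.41. Transport and membrane genes (13) had a median of -0.03, with Slc11a1, the metal transporter of phagosomes, at -0.03 ± 0.42.

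Regulators of the lysosome (14, median 0.22) held 0 genes at an unadjusted p under 0.05 in limma. Tfeb read 6.65, 5.07 and 6.40 with IFNa and 5.48 and 5.96 with vehicle, at the 58.1 percentile, with overlapping groups. Its relatives stood at 92.2 for Tfe3, 83.9 for Mitf and 93.4 for Tfec. The differences of these 4 factors were 0.32, -0.47, -0.34 and 0.24 in that order, each with an SE of 0.39 or more. Lamtor1, an anchor of the Ragulator complex that brings mTORC1 to the lysosome, differed by 0.09 ± 0.19, and its partner Lamtor3 by 0.88 ± 0.39, with every IFNa array higher. Tfeb, Tfe3, Mitf, Tfec and Gnptg were picked for mention with their values in view, outside the rule for named genes.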

How the data were processed

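Gene expression was measured on Affymetrix arrays in 3 IFNa and 2 vehicle samples of sorted cells. RNA was amplified with a NuGen kit, per the labels' protocols. Values in the deposited table were log2 signals of probe sets, computed by the authors using RMA (submitters' processing notes). RMA corrects background, normalizes between arrays and summarises each probe set. The sources used here give neither its software nor its settings, so what set the low end of the scale (lowest value -1.95) is unknown. No detection calls were used. Precision is limited by the number of arrays.

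Of 20881 rows, 17838 had 1 gene symbol, 244 several and 2799 none in the platform annotation. For 81 of 17756 symbols with several rows, the brightest row on average was kept. No member was among them, so the alternative that takes the mean of all rows left the values of members unchanged. IFNa was compared with vehicle with limma 3.58.1 under R 4.3.3, using lmFit and eBayes (trend = TRUE), two-sided, with Benjamini-Hochberg adjustment over all genes. The fit was tested on simulated data drawn from its own variance model, without array effects, so that test does not bear on an odd array. Errors are moderated standard errors (SE), and folds are ratios on that log2 scale. The members and lists were chosen with earlier results of these data known. Named in full are the 6 members with the smallest p, the brightest and dimmest of each role, the 4 with the largest and the 3 with the smallest SD, and for other lists the gene with the smallest p and the brightest. Values of other members are given by range, percentile or difference. Alternatives were the mean of all rows, testing only genes above the median signal, raising low values to the 20th percentile (3.22), a robust or untrended variance, array weights, quantile normalization, median centring, a replicate block, each array left out, and an adjusted p under 0.1.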

Additional observations from a re-analysis of the deposited data

How the results depend on the processing

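Under all 15 alternative fits 0 of the members and 0 of the other lysosomal genes were called by limma at an adjusted p under 0.05, and 0 at 0.1 in the fit as reported. The lowest adjusted p over these fits was 0.178 for members and 0.0914 for other lysosomal genes. With IFNa replicate 1 dropped, Atp6v1h and Gaa kept an unadjusted p under 0.05 (limma), beside Psap. With IFNa replicate 2 or 3 dropped, both missed it, and 2 other members reached it in each case. Gaa also missed it with robust variance, array weights, quantile normalization, a fixed replicate block and only genes above the median signal. Atp6v1h missed it with low values raised to the 20th percentile. Dropping a vehicle array leaves 1 array in that group. The difference of Atp6v1h was then 3.07 (replicate 2 dropped) or 3.13 (replicate 3 dropped), and that of Gaa 1.59 or 1.00. The median difference of members was -0.067 with quantile normalization and 0.11 to 0.21 with an array left out, and the median SD within groups 0.36 to 0.48. With quantile normalization the differences turned to -0.067 for Ctss, -0.066 for Grn, -0.19 for Lamp1, -0.078 for Atp6v0d1 and -0.11 for Atp6v1d. With median centring they turned to 0.072 for Ctsd, 0.068 for Tpp1 and 0.030 for Cd68, and with array weights to 0.044 for Ctsd. With an array left out, 20 of 35 members changed sign in at least 1 case. Among those named in full, the ranges were -0.079 to 0.42 for Ctsk, -0.032 to 0.16 for Ctss, -0.21 to 0.17 for Ctsd, -0.29 to 0.14 for Tpp1, -0.36 to 0.036 for Hexa, -0.78 to 0.46 for Npc2, -0.072 to 0.16 for Lamp1, -0.18 to 0.051 for Cd68, -0.68 to 0.027 for Atp6v0b, -0.15 to 0.56 for Atp6v0d1 and -0.10 to 0.25 for Atp6v1d. The cause was not tested. Replicates 2 and 3 share only a number across groups (deviations correlated at 0.0024 and 0.043). With a fixed replicate block on the number, in which IFNa replicate 1 carries no weight, the median difference was 0.16, 0 members were called, Npc2 turned to 0.022 and Lamp1 to -0.071; over all genes the calls went from 3 higher and 21 lower to 0 and 0, with 1441 at an unadjusted p under 0.05. With a random block they were 9 and 27, with 0 members. Calls over all genes were also 0 and 0 with the floor, 1 and 0 above the median signal, and 1 and 2 without the variance trend, and with an array left out ran from 0 to 37 higher and 0 to 144 lower. The 3 and 2 arrays limit what can be seen: for 23 members the interval reached past a 2-fold change.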
